A study of Mus musculus with 30 samples.

Results

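Endothelial cells line every blood and lymphatic vessel, and 32 genes that are known for their expression in these cells were followed through fracture healing. The 32 genes were set as a list of symbols, with no threshold on these libraries in the rule, and all 32 were found among the 43629 genes of the count table. They include the junction and surface proteins that hold the vessel wall together, the receptors and ligands of vessel growth, the transcription factors of the lineage, secreted and matrix proteins, and hyaluronan receptors of sinusoidal and lymphatic vessels. RNA of fracture callus was sequenced in 30 libraries, each of which was made from the callus of 1 male C57BL/6J mouse. The mice were 20 weeks old at fracture, and the right tibia was cut in an open operation and held by an intramedullary nail. Lean mice, fed a lean diet, gave callus of d3, d5, d7 and d10 after the operation. Mice with diet-induced obesity (DIO), fed a high-fat diet, gave callus of the same days and of d14 and d21. Each of the 10 groups held 3 mice. Lean callus of d14 and d21 was not analysed here. All mice were fractured, and the diet was the model of obesity.

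A callus starts as a clot, passes through cartilage, which holds few vessels, and is turned into bone as vessels grow in from the marrow and the periosteum. Vessel growth is driven by VEGF, which acts on the receptors VEGFR2 (Kdr) and VEGFR1 (Flt1), and is tuned by the angiopoietin and TIE receptors, by Notch and by apelin. Bone marrow holds wide, thin-walled sinusoids, whose endothelium takes up hyaluronan and other waste through scavenger receptors such as stabilin-2 (Stab2).

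The count table gave 13247122 to 26365620 reads per library (median 16854427). Each of the 32 genes had at least 3 counts in all 30 libraries, with a lowest count of 7 for Lyve1, and all 32 passed the filter on low counts in every comparison. Levels are given as CPM, which are counts scaled to a common library size with TMM factors. Changes were tested with the quasi-likelihood test of edgeR, two-sided, and a gene was called at a Benjamini-Hochberg adjusted p under 0.05 over all genes tested. SD values are over the 3 mice of a group. In RNA of whole callus, fewer endothelial cells and less RNA of a gene per cell cannot be told apart. A pair of libraries stood apart. The first Lean d10 library had 2.44 CPM of summed B cell markers against 48.99 and 82.9 CPM in the other two, and 55283 CPM of chondrocyte markers against 8721 and 10580 CPM. The second DIO d21 library had 11302 CPM of summed skeletal muscle markers against 321 and 2066 CPM in the other two.

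The summed level of the endothelial genes was 1871 ± 278 CPM (SD, n = 3) in the Lean callus on d3 and 2064 ± 174 CPM on d5, and then 1987 ± 106 CPM (d7) and 2099 ± 19.6 CPM (d10). In the DIO callus it was 1862 ± 181 on d3, 1929 ± 152 on d5, 1655 ± 128 on d7, 1980 ± 188 on d10, 1784 ± 299 on d14 and 1407 ± 272 on d21. The mean of DIO d21 was the lowest of the 10 groups, and its second library, at 1720 CPM, lay inside the range of DIO d14.

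Compared per length, as CPM per kb of exon averaged over the 30 libraries, Plvap was the most abundant at 73.9 CPM per kb. It encodes the protein of the diaphragms that span the pores of fenestrated vessels. Egfl7, a secreted matrix protein of vessels, followed at 40.9, with Eng, a TGF-beta coreceptor, at 40.1 and the apelin receptor Aplnr at 40.0 CPM per kb. Lyve1, a hyaluronan receptor of lymphatic endothelium and of some macrophages, was lowest at 0.848 CPM per kb. The spread over time differed widely among the genes. The steadiest was Pecam1, a junction protein of all endothelial cells and of platelets and some leukocytes, whose highest group mean was 1.36 times its lowest. The group means of 14 of the 32 genes stayed within 2-fold, while those of 5 genes were over 4-fold apart, namely Stab2 (27.2-fold), Apln (9.37-fold), Lyve1 (7.61-fold), Sox7 (4.24-fold) and Nos3 (4.04-fold). DIO d21 gave the lowest group mean for 17 of the 32 genes. The shares of all genes for these counts were not computed.

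**Figure D1:**
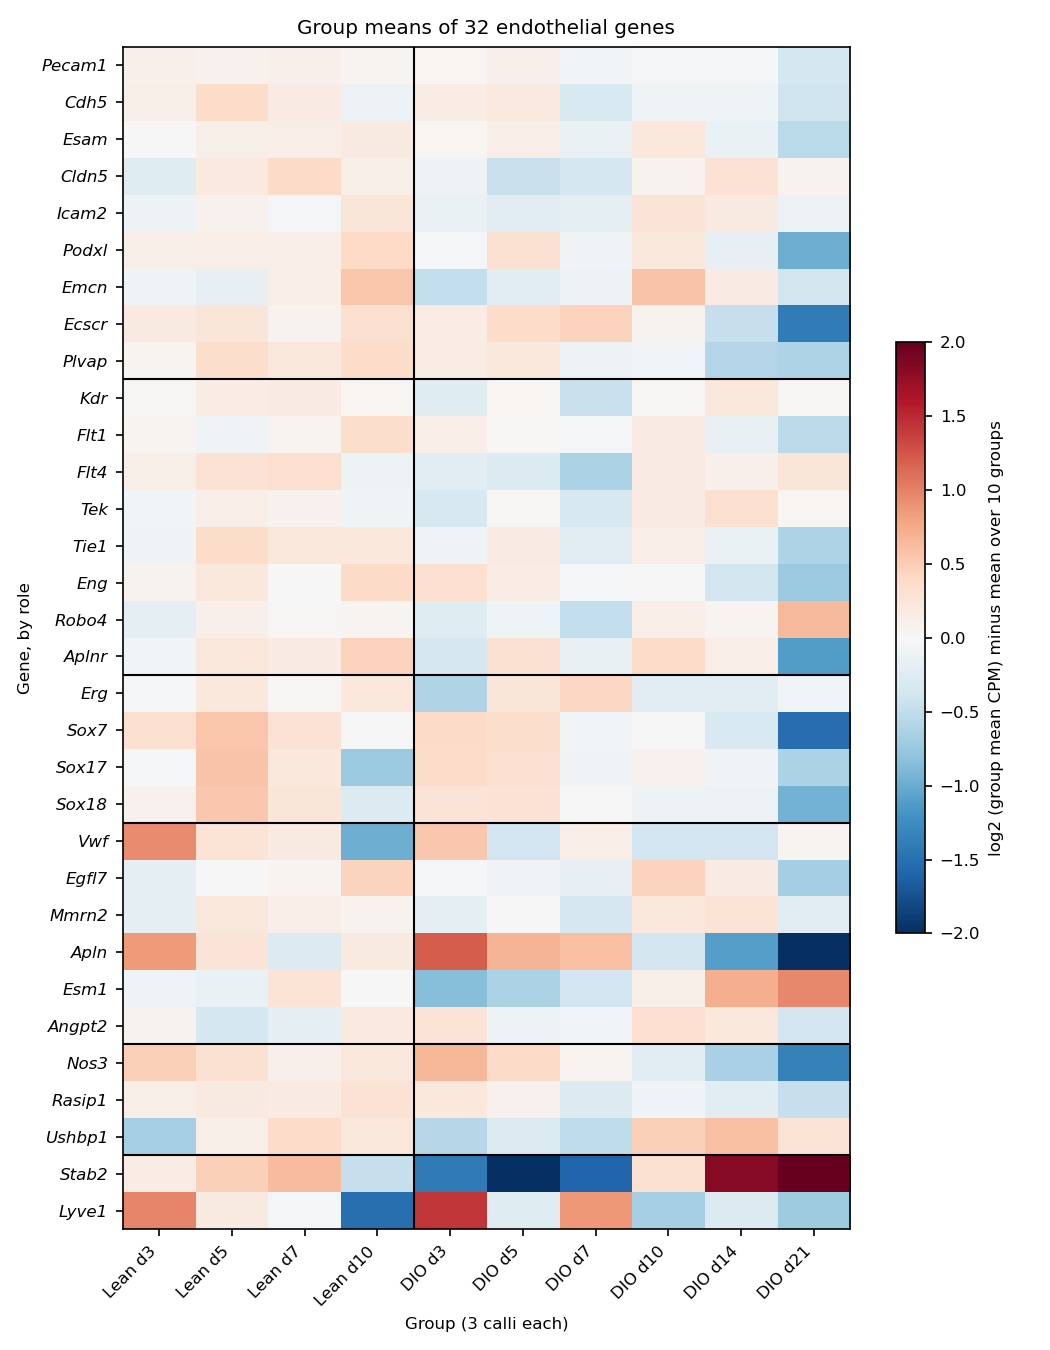
Group means of the 32 endothelial genes (rows, grouped by role from surface proteins at the top to hyaluronan receptors at the bottom) in 10 groups of 3 calli (columns). Colour is log2 of the group mean CPM minus its mean over the 10 groups, with red higher and blue lower, and the scale ends at 2 in each direction. The blue column of DIO d21, where 17 genes had their lowest mean, and the opposite courses of Apln and Stab2 stand out. The share of all genes with their lowest mean in DIO d21 was not computed.

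Promoter sequence is shown for Apln and Stab2, whose group means were furthest apart, and for Emcn and Ushbp1, which rose from d3 to d10 in both diets. Of the 32 genes, 16 had a promoter in the RefSeq table of GRCm38.p6, and the 250 bases before each start were searched on both strands for CAGGAAG, an ETS-type motif (ERG is an ETS factor), and AACAAT, a SOX-type motif. The ETS-type motif was found for 7 of the 16 genes and in 10.8% of all 32851 promoters, and the SOX-type motif for 4 of the 16 and in 9.42% of all promoters. A gene counted if any of its promoters matched, whereas the percentages are per promoter. The promoters of Emcn and Ushbp1 held both motifs, that of Apln the ETS-type motif, and the shortened window of Stab2 neither. Erg, which was not called from d3 to d10 in either diet, also had matches to both motifs. A match describes letters only. The sequences are printed 5′ to 3′ in the direction of the gene, end at the base before the annotated gene start, and have the motifs in capitals.
Emcn (chr3:137340828-137341066, plus strand, GRCm38): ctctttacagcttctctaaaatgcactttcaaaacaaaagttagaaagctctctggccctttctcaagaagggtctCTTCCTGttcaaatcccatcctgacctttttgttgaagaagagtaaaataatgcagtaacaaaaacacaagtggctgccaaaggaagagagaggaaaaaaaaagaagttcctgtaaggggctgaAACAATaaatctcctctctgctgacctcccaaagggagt
Ushbp1 (chr8:71395803-71396051, minus strand, GRCm38): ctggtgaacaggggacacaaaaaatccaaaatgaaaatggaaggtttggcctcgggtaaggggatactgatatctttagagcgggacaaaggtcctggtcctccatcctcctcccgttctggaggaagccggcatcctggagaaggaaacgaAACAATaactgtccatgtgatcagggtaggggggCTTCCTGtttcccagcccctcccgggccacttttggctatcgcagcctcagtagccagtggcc
Apln (chrX:48034854-48035103, minus strand, GRCm38): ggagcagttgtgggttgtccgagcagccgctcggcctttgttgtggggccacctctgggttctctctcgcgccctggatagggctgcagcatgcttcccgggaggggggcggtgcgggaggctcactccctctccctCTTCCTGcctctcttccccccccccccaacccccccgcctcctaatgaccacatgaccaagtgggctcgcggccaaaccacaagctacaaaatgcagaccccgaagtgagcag
Stab2 (chr10:87008026-87008192, minus strand, GRCm38): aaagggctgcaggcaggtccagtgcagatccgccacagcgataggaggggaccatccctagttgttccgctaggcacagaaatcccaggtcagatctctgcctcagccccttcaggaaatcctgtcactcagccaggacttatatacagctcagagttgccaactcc

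The first comparison asked how the endothelial genes moved in the Lean callus. Between any of d3, d5, d7 and d10, 6 of the 32 genes changed (18.8% of the list), against 19% of all 16471 genes tested. They were Ushbp1, Sox17, Lyve1, Vwf, Sox18 and Apln. None of the 9 surface genes or 8 receptors was among them. Of these only Emcn had an unadjusted p under 0.05, as 5882 of all 16471 genes did. By DESeq2, 7 of the 32 genes were called.

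Between d3 and d7, 2 of the 32 genes changed, against 1.67% of all genes. Of these, 1 rose, where 1.32% of all genes did, and 1 fell, where 0.352% did. Ushbp1, which encodes a protein that binds harmonin and is used here as a vessel gene, rose. Its level was 30.7, 39.7 and 50.3 CPM on d3 and 82.6, 96.1 and 68.1 CPM on d7. All 3 mice of d7 were above those of d3, as in 12.3% of all genes (log2 fold change 1.05 ± 0.19 SE, adjusted p = 0.0171, edgeR). Apln encodes apelin, a peptide released by sprouting endothelium, and fell. It was at 65.2, 48.6 and 57.2 CPM on d3 and at 29.4, 22.9 and 25.5 CPM on d7, with all of d7 below d3, as in 12.2% of all genes (log2 fold change -1.11 ± 0.25 SE, adjusted p = 0.0478). Lyve1 came next by its p, with -0.99 ± 0.38 SE and an adjusted p of 0.23. Neither call was stable to the loss of a mouse. Leaving out 1 of the 6 libraries in turn kept 0 or 1 of the 2 calls, and the adjusted p of Apln then lay between 0.0824 and 0.198. The call of Ushbp1 was lost without the first or second Lean d3 library or the first or second Lean d7 library (adjusted p 0.0594 to 0.0853). The median log2 fold change of the 32 genes was 0.15, beside 0.01 for all genes.

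From d7 to d10, 1 of the 32 genes changed, against 2.73% of all genes (1.09% higher and 1.65% lower). Sox17, a transcription factor of arterial endothelium, was at 15.8, 11.3 and 12.3 CPM on d7 and at 5.95, 8.05 and 6.42 CPM on d10 (log2 fold change -0.94 ± 0.22 SE, adjusted p = 0.0483). The libraries of d10 were all below those of d7, which was so in 14.8% of all genes. The call was lost when any library but the second of Lean d10 was left out (adjusted p 0.0565 to 0.136), and 2 genes were called without that one. Of the Sox17 exons, 16.8% overlap the gene Gm37587 on the other strand, and the counting strand is not given in the sources used here. Lyve1 (-1.44 ± 0.42 SE, adjusted p = 0.0749) and Vwf (-1.15 ± 0.36 SE, adjusted p = 0.0882) came next by p.

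Over the whole span from d3 to d10, 6 genes changed, 3 higher and 3 lower, against 29.3% of all genes (15.2% higher and 14.1% lower). The median log2 fold change of the 32 genes was 0.19, beside 0.02 for all genes. Emcn encodes endomucin, a sialomucin of capillary and venous endothelium. It was at 52.4, 41.6 and 65.6 CPM on d3 and at 84.1, 78.4 and 87.5 CPM on d10, with no overlap (0.68 ± 0.20 SE, adjusted p = 0.0247). Egfl7 was at 124, 102 and 154 CPM on d3 and at 185, 229.6 and 172 CPM on d10 (0.66 ± 0.20 SE, adjusted p = 0.0259). Ushbp1 reached 67.3, 84.8 and 73.2 CPM on d10 (0.94 ± 0.18 SE, adjusted p = 0.00373). In all of these the libraries of d10 were above those of d3, which was so in 20.7% of all genes, and 22.2% lay below. The 3 genes that fell were Vwf, Lyve1 and Sox17.

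Vwf encodes von Willebrand factor, which endothelial cells and platelets store and release to make platelets stick. It was at 67.6, 110.4 and 72.7 CPM on d3 and at 8.58, 33.3 and 24.01 CPM on d10 (-1.89 ± 0.37 SE, adjusted p = 0.00355), and the lowest value was that of the first Lean d10 library, which stood apart. Megakaryocyte and platelet markers moved with it. Of the 6 markers of that list, 4 fell from d3 to d10 and 0 rose, and their summed level was 453 to 926 CPM on d3 and 54.2 to 194 CPM on d10. Their part in the fall of Vwf was not tested. Lyve1 was at 3.32, 5.45 and 3.55 CPM on d3 and at 0.438, 0.939 and 0.841 CPM on d10 (-2.43 ± 0.41 SE, adjusted p = 0.00184). Of the 7 macrophage markers, 4 fell and 2 rose in the same comparison, their sum was 1341 to 1696 CPM on d3 and 1236 to 1543 CPM on d10, and their part in the fall of Lyve1 was not tested. Sox17 had a log2 fold change of -0.67 ± 0.22 SE (adjusted p = 0.0409, and 0.0566 with no filter and 0.0517 with the replicate block). Vwf, Ushbp1 and Lyve1 kept their calls when each library was left out in turn. Emcn, Egfl7 and Sox17 did not, and without the first Lean d3 library 3 genes were called, whereas without the first Lean d10 library, which stood apart, 6 were.

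In the DIO callus, where 6 days were sampled, 26 of the 32 genes changed between any of the days (59.1% of all 16995 genes tested did). The 6 that were not called were Pecam1, Cdh5, Icam2, Plvap, Angpt2 and Rasip1. Pecam1, Cdh5 (VE-cadherin, the adhesion protein of endothelial junctions) and Icam2 are among the proteins by which endothelial cells are most often recognised. Not being called over all days does not mean that these genes were level. In the contrast of d21 with d3 alone, edgeR called Pecam1 (-0.38), Cdh5 (-0.56), Plvap (-0.76), Angpt2 (-0.65) and Rasip1 (-0.67) lower, but not Icam2. Their adjusted p lay between 0.031 and 0.0453, and each call was lost without some of the libraries. The smallest adjusted p belonged to Apln (2.53e-07), a gene on chromosome X at 48025146 to 48034853 (GRCm38, minus strand), and Stab2 (1.69e-06), on chromosome 10 at 86841198 to 87008025 (minus strand).

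**Figure D2:**
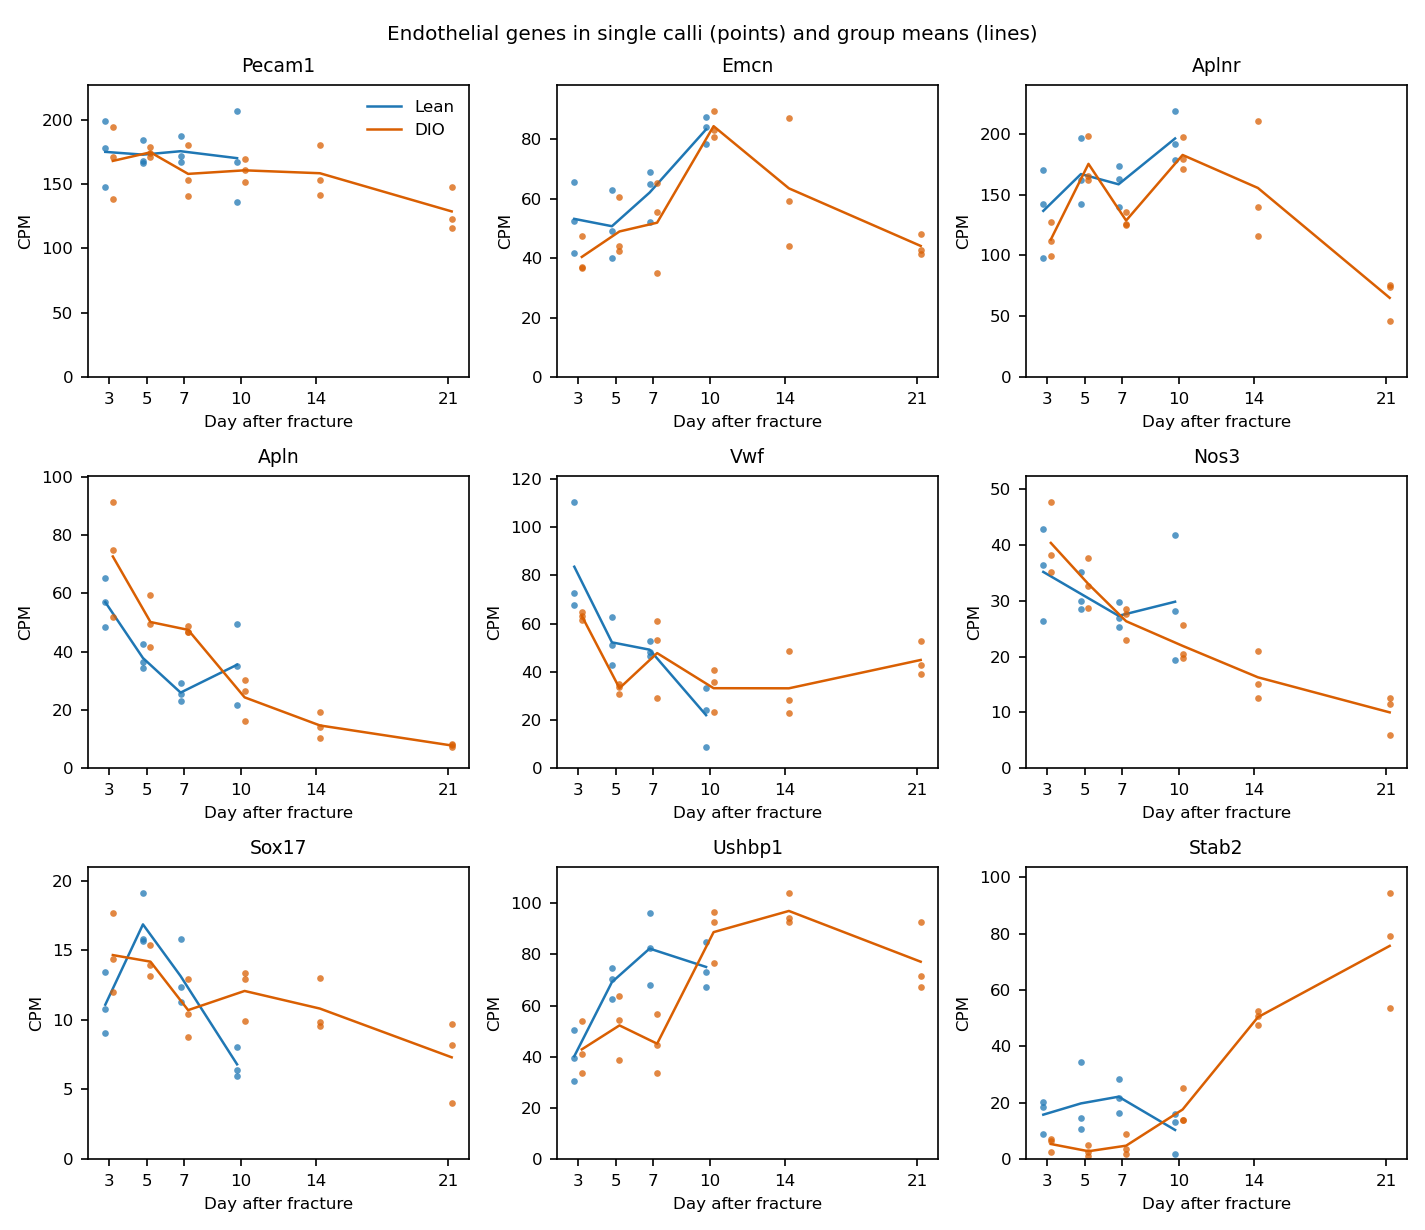
Levels of 9 endothelial genes in CPM against the day after fracture, with each callus as a point and lines through the group means, Lean in blue and DIO in orange (points of the diets are set slightly apart). Pecam1 is nearly level until d14. Emcn has its highest mean on d10 in both diets, which is the last Lean day here. In the DIO callus, Apln and Nos3 fall to their lowest on d21. There Stab2 climbs from under 10 CPM on d3 to d7 to between 53.4 and 94.4 CPM on d21.

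From d3 to d7, 1 of the 32 genes changed in the DIO callus, against 7.3% of all genes (4.67% higher and 2.62% lower). Erg, a transcription factor that keeps endothelial identity and is also made by chondrocytes, was at 18.9, 15.7 and 18.7 CPM on d3 and at 33.6, 42.3 and 30.9 CPM on d7. The libraries of d7 were all above those of d3, as in 14.1% of all genes (log2 fold change 1.01 ± 0.17 SE, adjusted p = 0.00117), and the call held without any 1 of the 6 libraries. All 5 chondrocyte markers rose in the same comparison, from a sum of 297 to 958 CPM on d3 to 13005 to 32541 CPM on d7, and their part in the rise of Erg was not tested. Nos3, the nitric oxide synthase of endothelium, had -0.61 ± 0.24 SE (adjusted p = 0.124), and Apln -0.61 ± 0.24 SE (adjusted p = 0.131). By sign, 25 of the 32 genes, Nos3 and Apln included, were below 0, with a median of -0.19 beside 0.03 for all genes. The share of all genes below 0 is not given here.

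From d7 to d10, 7 of the 32 genes changed, against 13% of all genes. Of these, 4 rose, where 6.01% of all genes did, and 3 fell, where 7.01% did. Stab2, the scavenger receptor of sinusoids, was at 3.65, 1.69 and 8.94 CPM on d7 and at 25.1, 13.8 and 13.9 CPM on d10 (1.88 ± 0.52 SE, adjusted p = 0.0218). Ushbp1 was at 44.8, 33.8 and 56.7 CPM on d7 and at 92.7, 96.7 and 76.7 CPM on d10 (0.98 ± 0.22 SE, adjusted p = 0.00552). Flt4 encodes VEGFR3, the receptor for VEGF-C, and went from 17.6, 10.4 and 17.3 CPM to 32.9, 25.7 and 20.2 CPM (0.79 ± 0.21 SE, adjusted p = 0.0154). In these 3 genes the libraries of d10 were all above those of d7, which was so in 13.5% of all genes.

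Egfl7 was the fourth gene that rose, from 126, 119.7 and 137 CPM on d7 to 189, 230.0 and 171 CPM on d10 (0.63 ± 0.19 SE, adjusted p = 0.039). Apln fell from 46.8, 48.7 and 46.9 CPM to 30.2, 26.6 and 16.1 CPM (-0.97 ± 0.25 SE, adjusted p = 0.0138). Lyve1 fell from 6.29, 3.31 and 1.81 CPM to 1.53, 1.01 and 1.40 CPM (-1.53 ± 0.48 SE, adjusted p = 0.0415). Erg also fell (-0.62 ± 0.17 SE, adjusted p = 0.0197), as did all 5 chondrocyte markers, whose sum was 1405 to 4738 CPM on d10. Of the 7 calls, that of Ushbp1 held without any 1 of the 6 libraries. Without the second DIO d7 library 2 genes were called, without the first DIO d10 library 3, and without the second or the third DIO d10 library 4. All 8 receptors had a log2 fold change above 0, as 47.8% of all genes did, and the libraries of d10 lay above those of d7 in 4 of them, as in 13.5% of all genes.

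Between d3 and d10 of the DIO callus, 10 genes changed, against 21.8% of all genes. Of these, 6 rose, where 11.1% of all genes did, and 4 fell, where 10.8% did. Emcn went from 36.9, 36.8 and 47.6 CPM on d3 to 83.0, 80.7 and 89.5 CPM on d10 (1.06 ± 0.23 SE, adjusted p = 0.00423). Esm1 encodes endocan, a proteoglycan of sprouting tip cells, and went from 3.66, 7.58 and 8.59 CPM to 9.74, 13.8 and 15.1 CPM (0.96 ± 0.31 SE, adjusted p = 0.0367). Stab2 was at 2.46, 7.05 and 6.54 CPM on d3 (1.71 ± 0.51 SE, adjusted p = 0.023), and Ushbp1 at 53.98, 33.7 and 41.0 CPM (1.05 ± 0.22 SE, adjusted p = 0.00258). For each of these 4 genes the libraries of d10 lay above those of d3, as 21.9% of all genes did, and 21.2% lay below.

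Aplnr and Tek, the receptor for the angiopoietins, were the other genes that rose, by 0.69 and 0.48 on the log2 scale. The call of Tek was lost without 5 of the 6 libraries and in 3 of 5 other settings (adjusted p up to 0.206). Apln fell from 51.9, 74.9 and 91.4 CPM on d3 (-1.58 ± 0.25 SE, adjusted p = 0.000326), so that the ligand and its receptor Aplnr had opposite signs between d3 and d10. The call of Aplnr (adjusted p = 0.0225, edgeR) held in 2 of the 6 fits without a library (adjusted p up to 0.0982). The course of Aplnr was not steady, with means of 113, 175, 129 and 183 CPM on d3, d5, d7 and d10. Lyve1 fell from 7.87, 4.47 and 4.54 CPM (-2.09 ± 0.48 SE, adjusted p = 0.00506), Vwf by 0.93 and Nos3 by 0.88 on the log2 scale. Leaving out each library kept the call of Vwf (adjusted p = 0.0225, edgeR) in 1 of 6 fits and that of Nos3 (adjusted p = 0.0145) in 3. The summed megakaryocyte and platelet markers were at 237 to 458 CPM on d3 and 146 to 226 CPM on d10. Their part in the fall of Vwf was not tested. Emcn, Apln, Ushbp1 and Lyve1 kept their calls without any 1 of the 6 libraries. Without the second DIO d3 or the second DIO d10 library 6 genes were called, and without the third DIO d10 library 5.

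From d10 to d14, edgeR called 0 of the 32 genes, against 0.759% of all genes (0.583% higher and 0.177% lower). At an unadjusted p under 0.05 there were 5 of the 32, beside 3006 of all 16995 genes. DESeq2 also called 0, and 1 was called with no filter on low counts. Stab2 was nearest to the threshold, at 47.7, 52.7 and 50.7 CPM on d14 against 25.1, 13.8 and 13.9 CPM on d10, with no overlap, as in 13.9% of all genes (1.52 ± 0.48 SE, adjusted p = 0.131). Apln was at 14.2, 10.3 and 19.4 CPM on d14 (-0.73 ± 0.25 SE, adjusted p = 0.149), which overlapped d10. Ecscr, a surface protein of endothelial cells that acts in their migration, was at 37.7, 37.5 and 43.3 CPM on d10 and 25.4, 20.4 and 35.7 CPM on d14 (-0.54 ± 0.23 SE, adjusted p = 0.241).

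From d14 to d21, 6 of the 32 genes fell and 0 rose, where 9.03% of all genes fell and 10.6% rose (19.6% in all). At an unadjusted p under 0.05 there were 15 of the 32, beside 5861 of all 16995 genes. Aplnr, the apelin receptor, went from 139, 116 and 211 CPM on d14 to 46.0, 75.6 and 73.7 CPM on d21 (-1.26 ± 0.21 SE, adjusted p = 0.00077). Apln itself went to 7.25, 8.22 and 7.82 CPM (-0.92 ± 0.26 SE, adjusted p = 0.0198), so that ligand and receptor fell together over this step. Sox7, a transcription factor of early endothelium, went from 6.16, 4.42 and 7.76 CPM to 1.90, 2.29 and 3.68 CPM (-1.22 ± 0.31 SE, adjusted p = 0.0136). In these genes d21 lay below d14, as in 16.1% of all genes.

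Ecscr fell to 12.3, 13.1 and 17.3 CPM (-0.93 ± 0.24 SE, adjusted p = 0.0128). Egfl7 fell from 151, 134 and 196 CPM to 74.0, 99.7 and 95.1 CPM (-0.84 ± 0.19 SE, adjusted p = 0.00714). Podxl encodes podocalyxin, a sialomucin of the side of the cell that faces the lumen, and fell from 57.04, 57.4 and 55.0 CPM to 21.9, 39.5 and 35.5 CPM (-0.81 ± 0.18 SE, adjusted p = 0.0056). These groups did not overlap either. Podxl, Aplnr and Egfl7 kept their calls without any 1 of the 6 libraries. Without the third DIO d14 library or the first DIO d21 library 3 genes were called, and without the second DIO d21 library, which stood apart, 13.

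The widest span, from d3 to d21 of the DIO callus, moved most of the genes, and in both directions. Of the 32 genes, 19 fell, where 21.8% of all genes fell, and 5 rose, where 23.5% rose, so that 24 changed beside 45.3% of all genes. The median log2 fold change was -0.57 for the 32 genes and 0.03 for all genes, and leaving out each library gave -0.78 to -0.48. The libraries of d21 lay below those of d3 in 17 of the 32 genes (26.2% of all genes) and above in 7 (28.8% of all genes).

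Among the surface genes, 6 of 9 fell and 0 rose, from Ecscr (log2 fold change -1.55) to Pecam1 (-0.38), while Cldn5, Icam2 and Emcn were not called. Among the receptors, Eng (-1.08), Aplnr (-0.80), Flt1 (-0.66) and Tie1 (-0.53) fell and Robo4, a guidance receptor of endothelium, rose (0.89). Kdr, Flt4 and Tek were not called, with log2 fold changes of 0.27, 0.47 and 0.35. All 4 transcription factors changed. Sox7 (-1.90 ± 0.32 SE, adjusted p = 0.000128), Sox18 (-1.22) and Sox17 (adjusted p = 0.0056) fell and Erg rose (0.54). Sox7 was at 10.1, 8.04 and 11.4 CPM on d3, well above its 1.90, 2.29 and 3.68 CPM on d21.

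Apln showed the strongest fall, to 7.76 ± 0.486 CPM on d21 from 72.7 ± 19.8 CPM on d3 (SD, n = 3, -3.23 ± 0.27 SE, adjusted p = 3.4e-07). As a share of the Pecam1 level, Apln was 44.7% on d3, 28.7% on d5, 30.4% on d7, 15.0% on d10, 9.18% on d14 and 6.07% on d21. Esm1 went the other way, from 6.61 ± 2.61 CPM on d3 to 25.8, 18.02 and 26.1 CPM on d21 (1.81 ± 0.32 SE, adjusted p = 0.000195). Nos3 fell from 47.7, 35.2 and 38.3 CPM to 5.99, 12.6 and 11.4 CPM (-2.01 ± 0.25 SE, adjusted p = 8.49e-06). Of the Nos3 exons, 32.3% overlap the gene Gm15587 on the other strand. Angpt2 (-0.65) and Egfl7 (-0.64) fell among the secreted proteins, and Vwf and Mmrn2 were not called.

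Stab2 had the strongest rise, to 79.1, 94.4 and 53.4 CPM on d21 (3.81 ± 0.53 SE, adjusted p = 2.69e-05). As a share of the Pecam1 level it was 3.40% on d3, 1.61% on d5, 3.17% on d7, 10.9% on d10, 32.1% on d14 and 58.6% on d21. Pecam1 itself had a lower mean on d21 (129 CPM) than on d3 (168 CPM). Lyve1, the other hyaluronan receptor, fell to 0.921, 2.00 and 0.932 CPM (-2.13 ± 0.47 SE, adjusted p = 0.00139). The calls of 14 of the 24 genes held without any 1 of the 6 libraries, and these were Podxl, Ecscr, Flt1, Eng, Aplnr, Sox7, Sox17, Sox18, Apln, Esm1, Nos3, Ushbp1, Stab2 and Lyve1. Robo4 was at 80.5, 124 and 40.3 CPM on d21 against 44.1 ± 3.90 CPM on d3, and its call was lost without the second DIO d21 library (adjusted p = 0.14) and without the second DIO d3 library (adjusted p = 0.0555). Without the second DIO d21 library 23 of the 32 genes were called. The call of Pecam1 was lost without 4 of the 6 libraries and in 2 of 5 other settings (adjusted p up to 0.163).

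Markers of other cells moved over the same span. All 5 B cell markers rose from d3 to d21, from a sum of 8.08 to 13.4 CPM to one of 452 to 605 CPM. All 5 erythroid markers rose, from 587 to 668 CPM to 20788 to 30500 CPM, and all 6 adipocyte markers, from 110 to 266 CPM to 700.0 to 801 CPM. Of the 9 pericyte and smooth muscle markers, 6 fell and 2 rose, and their sum went from 2448 to 3392 CPM on d3 to 417 to 1076 CPM on d21. In the other lists, 5 of 6 neutrophil and 4 of 5 leukocyte markers rose, 3 of 7 macrophage, 2 of 5 chondrocyte, 1 of 6 megakaryocyte and 1 of 5 skeletal muscle markers fell, and of 5 osteoblast and osteocyte markers 2 rose and 3 fell. Of the 64 marker genes of the 11 lists, 6 had no count in at least 1 library, namely Cidec, Klf1, Lep, Matn1, Ms4a1 and Plin1. The part of these cells in the rise of Stab2 and in the falls of the other endothelial genes was not tested.

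**Figure D3:**
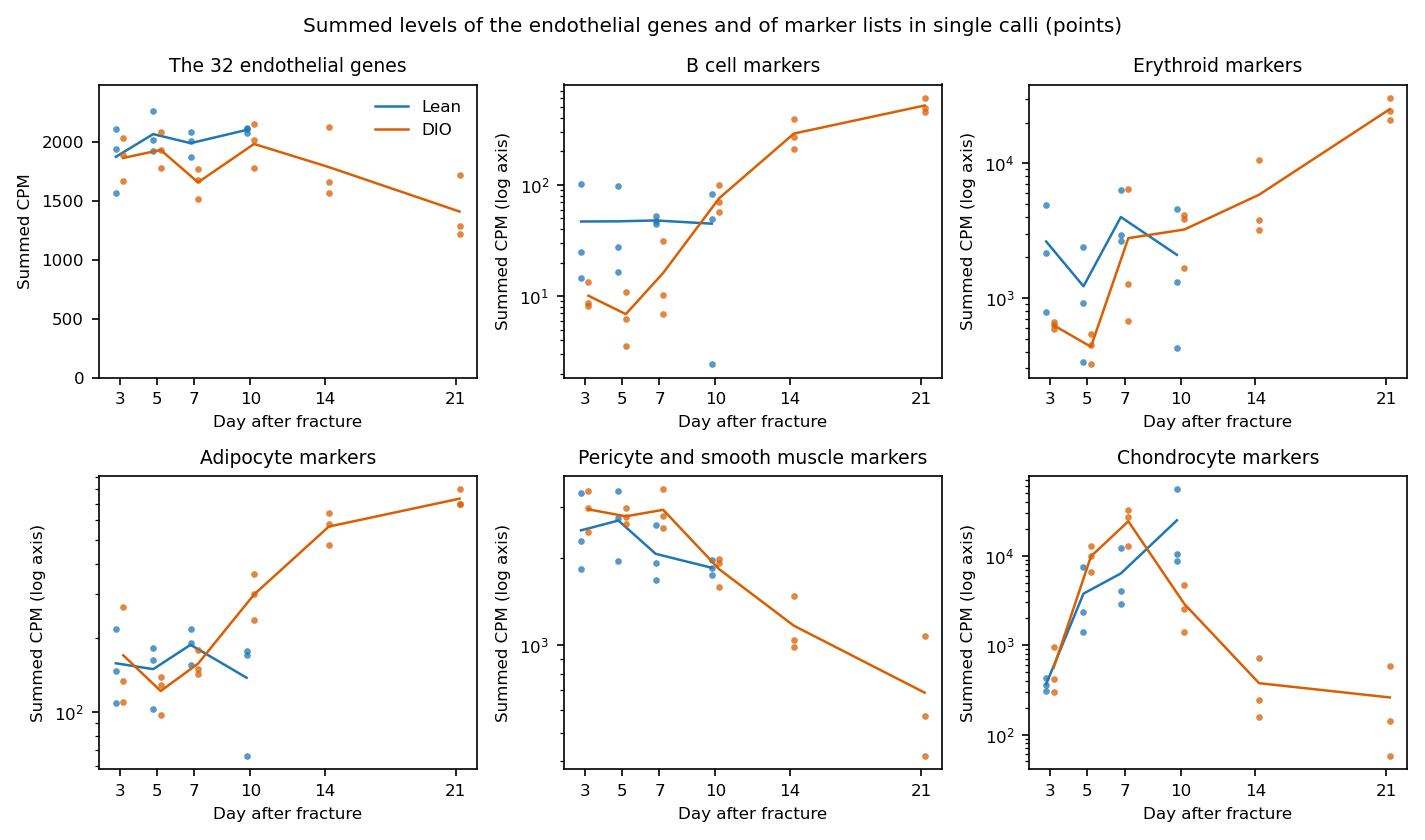
Summed CPM of the 32 endothelial genes (first panel, axis from 0) and of 5 marker lists of other cells (log axes) against the day after fracture, with each callus as a point and lines through the group means, Lean in blue and DIO in orange. In the DIO callus the B cell, erythroid and adipocyte sums climb to d21 and the pericyte sum falls, while the endothelial sum goes from 1862 CPM on d3 to 1407 CPM on d21. The mean sum of chondrocyte markers is highest on d7 in DIO. In Lean it is highest on d10, the last Lean day here, where the first library stands apart.

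Genes that act with these 32 were followed as 5 further lists, with 42 genes in all. The list of 10 Notch and ALK1 genes, which pattern arteries, had 6 genes that fell and 1 that rose in the DIO callus from d3 to d21, where 21.8% of all genes fell and 23.5% rose. Gja5 and Gja4, the connexins of arterial endothelium, fell by 1.79 and 1.72 on the log2 scale, the Notch ligand Dll4 by 1.27 and the receptor Notch4 by 0.93, whereas Hey2, a Notch target, rose (1.14). Of the 10 vessel growth ligands and coreceptors, 4 fell and 2 rose. Vegfa went from 177 CPM on d3 to 76.4 CPM on d21 (-1.21 ± 0.25 SE, adjusted p = 0.000714) and Vegfd from 11.9 to 1.74 CPM (-2.76), while Angpt4 (1.87) and Vegfc, the ligand of Flt4, rose (0.74). Of 7 vessel growth inhibitors, Col18a1 (-2.76) and Thbs2 (-1.11) fell and Serpinf1 rose (0.93).

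Of 5 genes of activated endothelium, listed for leukocyte adhesion or chemokine binding, 3 rose and 1 fell between the same days (23.5% and 21.8% of all genes). Vcam1, which stromal cells of the marrow make as well, rose from 45.4 to 268 CPM (2.56 ± 0.21 SE, adjusted p = 3.23e-07). Ackr1, a receptor that binds chemokines, rose from 5.95 to 22.5 CPM (1.93). The mean sum of erythroid markers went from 627 to 25145 CPM between the same days. The part of erythroid cells in the rise of Ackr1 was not tested. In a list of 10 further endothelial genes, 6 rose and 0 fell, among them Tal1 (3.04), which erythroid cells express strongly, Fli1 (1.02) and Mmrn1 (1.59), which blood cells express too, and Clec14a (0.98) and Gpihbp1 (0.90), which are held to be endothelial.

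In the Lean callus from d3 to d10, 4 of the 10 ligands and coreceptors changed, 3 higher and 1 lower, and 3 of the 10 Notch and ALK1 genes rose, namely Hey1 (1.35), Hey2 (1.14) and Gja4 (0.65). Of all genes, 15.2% rose and 14.1% fell between these days. Gpihbp1, which anchors lipoprotein lipase in capillaries, rose from 23.6 to 66.2 CPM (1.52 ± 0.21 SE, adjusted p = 0.000711). In the DIO callus it rose from 27.04 to 73.5 CPM over the same days (1.45 ± 0.22 SE, adjusted p = 0.000228). Selp, the P-selectin of endothelium and platelets, fell in both (-1.79 in Lean and -1.91 in DIO). Cnmd, the cartilage protein chondromodulin that holds vessels back, went from 1.42 to 308 CPM in Lean (7.87) and from 0.83 to 47.7 CPM in DIO (5.87).

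The next comparison asked whether the diets differed on the same day. On d3, edgeR called 0 of the 32 genes and 0% of all 15772 genes tested. Of the 32 genes, 2 had an unadjusted p under 0.05, beside 2374 of all 15772 genes, and DESeq2 called 2 of the 32. Stab2 was at 2.46, 7.05 and 6.54 CPM in DIO and at 8.84, 20.1 and 18.3 CPM in Lean, with no overlap, as in 12% of all genes (-1.54 ± 0.43 SE, adjusted p = 0.162). Erg was at 18.9, 15.7 and 18.7 CPM in DIO and at 25.8, 29.1 and 23.3 CPM in Lean (-0.55 ± 0.15 SE, adjusted p = 0.152). Vwf was next by p (-0.40 ± 0.18 SE, adjusted p = 0.355).

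On d5, edgeR called 0 of the 32 genes, against 1.08% of all genes. Of the 32 genes, 5 had an unadjusted p under 0.05, beside 2913 of all 15722 genes, and DESeq2 called 3 of the 32. Cldn5, the claudin of endothelial tight junctions, was at 25.6, 22.3 and 28.8 CPM in DIO and at 41.2, 41.3 and 36.6 CPM in Lean (-0.63 ± 0.13 SE, adjusted p = 0.0665). Stab2 was at 4.86, 0.955 and 2.53 CPM in DIO and at 10.5, 34.3 and 14.4 CPM in Lean (-2.80 ± 0.62 SE, adjusted p = 0.0787). Vwf was at 34.9, 33.7 and 30.9 CPM in DIO and at 42.7, 62.5 and 51.3 CPM in Lean (-0.65 ± 0.15 SE, adjusted p = 0.0856). In these genes DIO lay below Lean, as in 12.3% of all genes, and without the first Lean d5 library 1 gene was called, without the third 2.

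By the number of genes that did not overlap, the diets were furthest apart on d7. Of the 32 genes, 27 were lower in DIO by sign, and in 15 the 3 DIO libraries were all below the 3 Lean libraries, which was so for 11.9% of all genes. In 1 gene they were all above (10.2% of all genes). The median log2 fold change was -0.27, beside -0.0013 for all genes, and leaving out each library gave -0.32 to -0.17. All 8 receptors were lower in DIO by sign, 6 of them without overlap. For Tek the gap was narrow, with 23.45 CPM in the highest DIO library and 23.54 CPM in the lowest Lean library. The share of all genes lower by sign is not given here, and all 32 genes were read from the same 6 calli. At an adjusted p under 0.05, however, edgeR called 1 of the 32 genes, against 2.32% of all genes, and that gene was higher in DIO, as 1.4% of all genes were.

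The gene called was Apln. It was at 46.8, 48.7 and 46.9 CPM in DIO and at 29.4, 22.9 and 25.5 CPM in Lean (0.88 ± 0.17 SE, adjusted p = 0.03). Stab2 was nearest to the threshold among the lower genes, at 3.65, 1.69 and 8.94 CPM in DIO and 21.7, 28.4 and 16.3 CPM in Lean (-2.20 ± 0.49 SE, adjusted p = 0.0502). Flt4 was at 17.6, 10.4 and 17.3 CPM in DIO and at 26.5, 31.6 and 30.99 CPM in Lean (-0.96 ± 0.23 SE, adjusted p = 0.07). In all 3 genes the groups did not overlap. The call of Apln was lost without any library but the third of DIO d7 (adjusted p 0.0618 to 0.191), without which 4 genes were called, and DESeq2 called 5.

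Several marker lists differed between the diets on d7 as well. All 5 chondrocyte markers were higher in DIO by sign and 1 was called, with sums of 13005 to 32541 CPM in DIO and 2875 to 12082 CPM in Lean. Of the 7 macrophage markers 3 were lower, with sums of 755 to 779 CPM in DIO and 979 to 1624 CPM in Lean. The 5 B cell markers were lower in DIO by sign, with 0 called and sums of 6.91 to 31.3 CPM against 44.2 to 52.3 CPM. Their part in the levels of the endothelial genes was not tested. Among the companion genes, Hey1 was lower in DIO (20.2 against 41.6 CPM, log2 fold change -1.03, adjusted p = 0.0323) and Cnmd higher (517 against 98.8 CPM, log2 fold change 2.39, adjusted p = 0.028).

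On d10, edgeR called 0 of the 32 genes and 0% of all 15341 genes, and DESeq2 called 0 of the 32. At an unadjusted p under 0.05 there were 1082 of all genes and 1 of the 32. That gene was Sox17, at 12.96, 13.3 and 9.94 CPM in DIO and 5.95, 8.05 and 6.42 CPM in Lean, with no overlap, as in 6.84% of all genes (0.84 ± 0.25 SE, adjusted p = 0.686). Erg (-0.42 ± 0.21 SE, adjusted p = 0.686) and Plvap (-0.42 ± 0.23 SE, adjusted p = 0.688) came next and overlapped. The median of the 32 genes was 0.02, as for all genes (0.02). A p that misses the threshold with 3 mice per group does not show that the diets were alike.

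**Figure D4:**
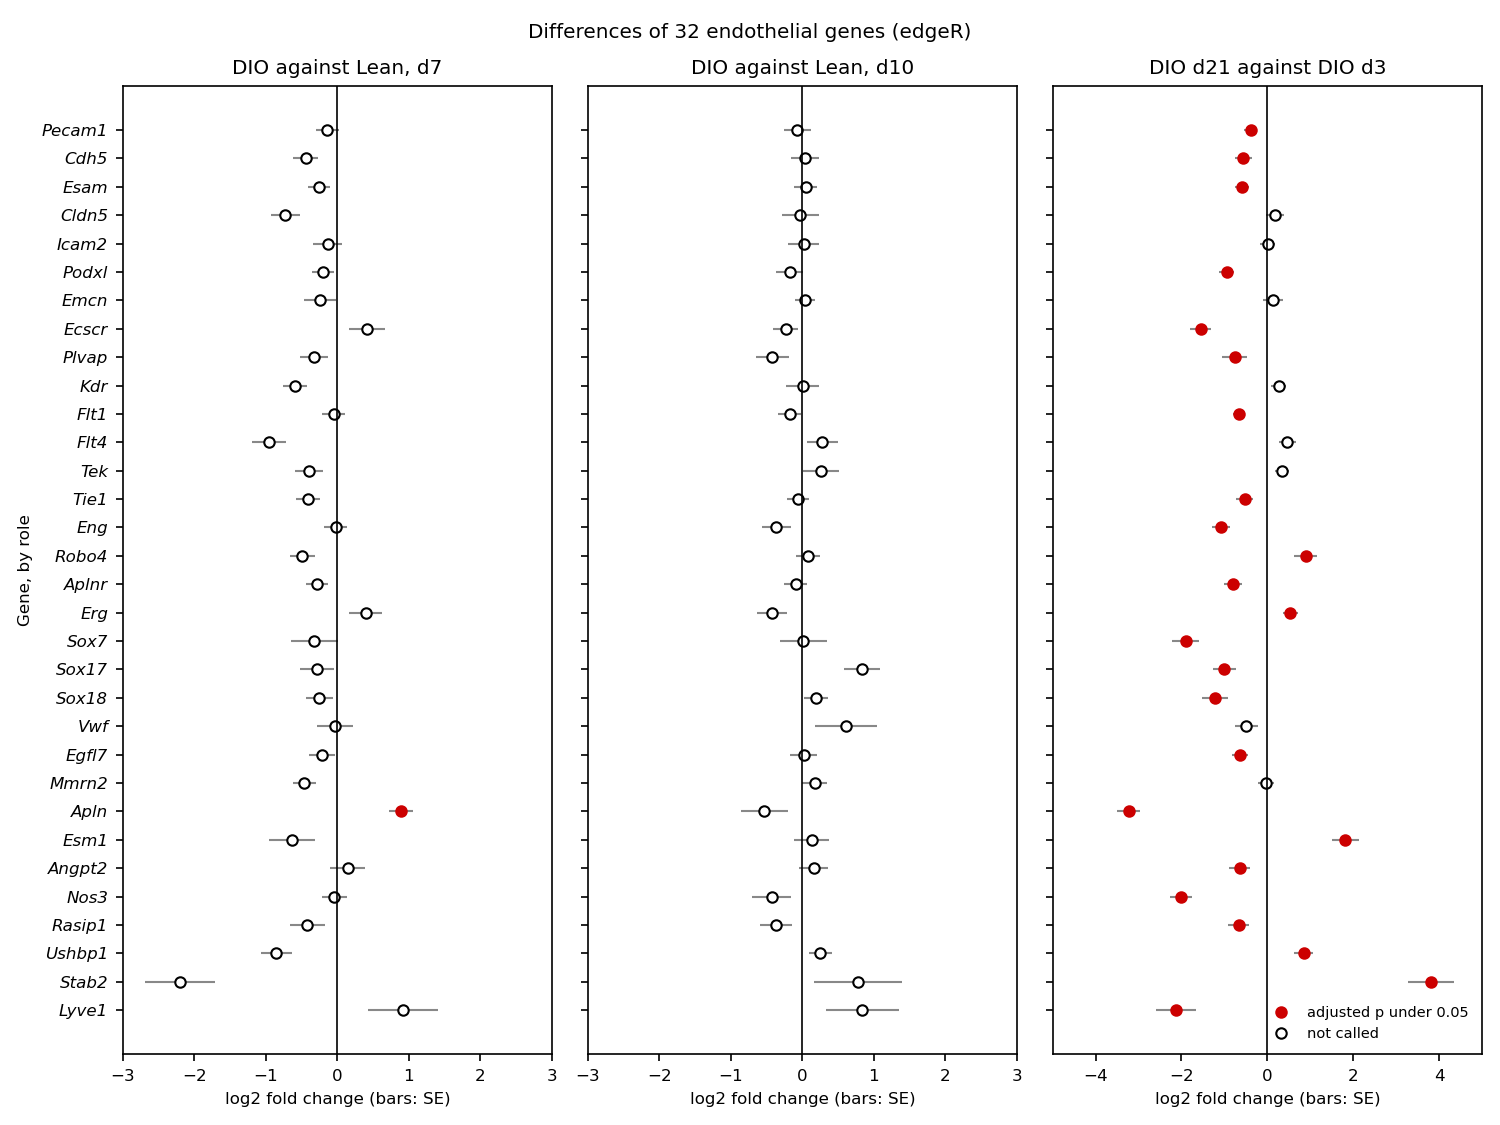
Log2 fold changes of the 32 endothelial genes (rows) with their standard errors, for DIO against Lean callus on d7 and on d10 and for DIO d21 against d3. Filled points had an adjusted p under 0.05 in edgeR, and the axis of the third panel is wider. On d7 most points lie left of 0 and Apln is called on the right, on d10 none is called, and on d21 there are 19 filled points on the left and 5 on the right.

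Whether the difference between the diets itself changed over time was tested with the 24 libraries that both diets share by day. Over all 4 days, edgeR called 0 of the 32 genes, against 1.65% of all genes. Of the 32 genes, 7 had an unadjusted p under 0.05, beside 3137 of all 17057 genes, and DESeq2 called 5 of the 32. First by p in edgeR were Sox17 (adjusted p = 0.0759), Flt4 (0.0773) and Ushbp1 (0.114). Without the third Lean d7 library 1 gene was called, and without the second Lean d10 library 2.

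Between d7 and d10, the difference changed for 4 of the 32 genes, against 5.07% of all genes. Taken as DIO minus Lean, it rose in 3, where 1.7% of all genes did so, and fell in 1, where 3.37% did. A rise is a shift of DIO upward relative to Lean and need not set the diets further apart. The mean of Flt4 was 15.1 CPM in DIO and 29.7 CPM in Lean on d7, and 26.3 and 21.8 CPM on d10. Flt4 moved by -0.43 on the log2 scale in Lean and by 0.79 in DIO, a difference of 1.24 ± 0.28 SE (adjusted p = 0.0143). Sox17 moved by -0.94 in Lean and by 0.17 in DIO (difference 1.13 ± 0.29 SE, adjusted p = 0.0301). Ushbp1 moved by -0.12 in Lean and by 0.98 in DIO (difference 1.11 ± 0.30 SE, adjusted p = 0.0385). Apln moved by 0.46 in Lean and by -0.97 in DIO (difference -1.42 ± 0.36 SE, adjusted p = 0.0281). Stab2 had the largest difference by size (2.99 ± 0.93 SE) with an adjusted p of 0.0648.

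By sign, 12 of the 32 genes were lower on d10 than on d7 in Lean and higher in DIO, 4 were the reverse, 13 were higher in both and 3 lower in both. The shares of all genes with these signs were not computed, and the d7 libraries are those of the diet comparison on d7. Each of the 4 calls was lost without at least 1 of the 12 libraries. Without the first Lean d10 library, which stood apart, 1 gene was called, as without the second DIO d7 or the first DIO d10 library. There were 2 genes called without the first or second Lean d7, the first DIO d7 or the second DIO d10 library, and 7 without the second Lean d10 library.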

How the data were processed

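Calli of 30 mice were sequenced as 30 libraries from a stranded mRNA preparation. The authors trimmed the reads, aligned them to GRCm38 with HISAT2 2.1.0 (version per the submitters' processing notes) and counted them per gene with HTSeq, and deposited raw counts in 1 table of 43629 genes. The strand option and the annotation of the counting are not given in the sources used here, so antisense partners may share reads with Nos3, Rasip1 and Sox17. Counts were analysed as deposited with edgeR 4.0.16 (R 4.3.3, limma 3.58.1): genes were filtered with filterByExpr, scaled with TMM factors and tested with the quasi-likelihood F-test, two-sided, with Benjamini-Hochberg adjustment over all genes tested and a threshold of 0.05. Lean days, DIO days and the diets of each day were fitted apart, and diet by day with the 24 libraries of the days that both diets share. Comparisons within a fit share libraries, so they are not independent of each other. P-values rest on the spread between mice of the same group, which was estimated over all groups of a fit with information shared between genes. Total counts of 13247122 to 26365620 per library limit the precision of the lowest genes, such as Lyve1. CPM are counts scaled to a common library size with the TMM factors, and CPM per kb divides by exon length in GENCODE M21, to which 42462 genes were matched.

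No library was a duplicate of another of its group. The scripts were tested on simulated data. The 32 genes, the 42 companion genes and the 64 markers were chosen with earlier results of these data known. Values in every library are given for at most 6 of the 32 genes per comparison, those with the largest log2 fold change among the called ones with a mean of at least 1 CPM in a group, or, where fewer than 3 were called, those with the smallest p up to 3. Robo4 was added after its values were seen. Alternatives were RLE factors, no filter beyond 1 count, DESeq2 1.42.0, a replicate block, all 30 libraries in 1 fit, and leaving out each library.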

Additional observations from a re-analysis of the deposited data

Results flagged for a closer look

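For 4 of the 32 genes, the change from d7 to d10 differed between the diets by the test of the difference itself (DIO change minus Lean change on the log2 scale, edgeR, 12 calli in the contrast), against 5.07% of all genes. The differences were 1.24 ± 0.28 SE for Flt4 (adjusted p = 0.0143), 1.13 ± 0.29 SE for Sox17 (adjusted p = 0.0301), 1.11 ± 0.30 SE for Ushbp1 (adjusted p = 0.0385) and -1.42 ± 0.36 SE for Apln (adjusted p = 0.0281). When each of the 12 libraries was left out in turn, the call held in 11 fits for Flt4, 7 for Apln, 6 for Sox17 and 5 for Ushbp1, and without the first Lean d10 library 1 of the 4 genes was called. With all 30 libraries in 1 fit the call of Sox17 was lost (adjusted p = 0.0597). Over the same days the chondrocyte markers fell in DIO and their mean sum rose in Lean. Only the first Lean d10 library, which stood apart, lay above the Lean d7 range of 2875 to 12082 CPM. The part of these markers in the differences was not tested.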

How the results depend on the processing

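No call of a single gene changed direction under the alternatives run, but calls were lost in 15 of 310 cases under other settings and in 128 of 396 cases with a library left out. Counts of called genes among the 32 that moved by over 1.5 times were as follows, and the cause was not tested. From d7 to d10 in Lean, 3 genes were called with the replicate block, 3 with DESeq2 and 2 with all 30 libraries in 1 fit, against 1. From d10 to d14 in DIO, 1 gene was called with no filter, against 0. Between the diets on d3, 1 was called with no filter, 1 with the replicate block and 2 with DESeq2, against 0. On d5, 3 were called with no filter and 3 with DESeq2, against 0. On d7, 2 were called with RLE factors, 4 with no filter, 5 with DESeq2 and 3 with all 30 libraries, against 1. For diet by day, 1 was called with no filter and 5 with DESeq2, against 0.

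Leaving out each library in turn gave these ranges of called genes. In Lean, it gave 4 to 6 over any day, 0 to 1 from d3 to d7, 0 to 2 from d7 to d10 and 3 to 6 from d3 to d10. In DIO, it gave 21 to 27 over any day, 1 in each case from d3 to d7, 2 to 7 from d7 to d10, 5 to 7 from d3 to d10, 0 in each case from d10 to d14, 3 to 13 from d14 to d21 and 16 to 23 from d3 to d21. Between the diets it gave 0 on d3, 0 to 2 on d5, 0 to 4 on d7 and 0 on d10, with 0 to 2 for diet by day and 1 to 7 for the change of the diet difference from d7 to d10.

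Replicate numbers were not taken to pair the calli, since in no set of groups did every same-numbered pair correlate over 0.1. Same-numbered calli of different groups had correlations of their deviations from -0.48 to 0.41, and a callus correlated best with its own number in 53 of 150 cases. In the Lean groups this was so in 22 of 36 cases, with 10 of 18 same-numbered pairs over 0.1 (median 0.13, against -0.07 for other pairs), which is a hint of shared deviations from the data and not from the labels. With the replicate block, 7 genes were called over any day in Lean, 24 over any day in DIO, 20 from d3 to d21 in DIO, 6 from d7 to d10 in DIO, 1 between the diets on d7, where Apln lost its call (adjusted p = 0.0649) and another gene gained one, and 4 for the change of the diet difference. With all 30 libraries in 1 fit the adjusted p of Apln on d7 was 0.0535.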
